A study of Mus musculus with 4 samples.

Results

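The nuclear-encoded subunits of the 5 complexes of oxidative phosphorylation were examined in RNA that co-purified with FLAG-tagged NANOS2 from mouse testis. Members were the genes whose symbol starts with Nduf followed by a, b, c, s or v and a digit, the 4 Sdh genes, and the genes whose symbol starts with Uqcr, with Cox4 to Cox8 or with Atp5. Of 105 such symbols in the RefSeq gene table (87 of them protein coding), 81 had a probe on the array, out of 16353 genes with a symbol there, and 79 were tested. They divide into 34 genes of complex I, 4 of complex II, 8 of complex III, 18 of complex IV and 17 of complex V. Ndufb1, Ndufb4b, Ndufb4c, Ndufa11, Ndufa4l2 and Ndufv2 are the protein-coding symbols without a matched probe, and the other 18 symbols are pseudogenes.

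The samples were 2 FLAG immunoprecipitates (FLAG IP) and 2 samples of the starting RNA (Input), described by the series as biological duplicates, each on its own single-colour Agilent mouse array. All came from postnatal day 7 (P7) testis of males carrying a Tg-Nanos2 enhancer-3xFLAG-Nanos2-3'UTR transgene, so both groups carry the tagged gene. A description label of every sample names an E14.5 gonad instead, and titles and characteristics, which give P7, were followed. The labels name no animals, so p-values measure the spread between these arrays. FLAG immunoprecipitates from mice without the transgene were not analysed here, so recovery through tagged NANOS2 and recovery by the procedure itself cannot be told apart.

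The respiratory chain sits in the inner mitochondrial membrane. Complex I takes electrons from NADH and complex II takes them from succinate, both pass them to coenzyme Q, complex III hands them on to cytochrome c, and complex IV gives them to oxygen. The proton gradient built on the way drives complex V, the ATP synthase. Most subunits are encoded in the nucleus, made on cytosolic ribosomes and imported, while a small set of catalytic subunits is encoded by mitochondrial DNA and falls outside the membership rule. NANOS2 keeps spermatogonial stem cells undifferentiated and is known to bind RNA and to recruit the CCR4-NOT deadenylase complex.

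Many of these genes are known to be driven from compact promoters with sites for NRF1, ETS factors and YY1, and the short stretches below are shown because members of different complexes hold the same site. Promoter windows (250 bases before to 50 after the start) were matched from RefSeq, assembly GRCm38.p6, for 66 of the 81 members and for 27025 genes in all, and both strands were searched. No motif searched contains another. GCATGCGC, the core of the NRF1 motif, was found in 9 members (13.6%), against 3.05% of all genes. CCGGAAGT, an ETS motif, was found in 5 members (7.58%), against 4.31% of all genes. AAGATGGCG, a YY1 motif, was found in 7 members (10.6%), against 1.64% of all genes. Windows of 30 bases are printed 5′ to 3′ on the gene's own strand, with the motif in capitals.
Ndufa6 (complex I), chr15:82354356-82354385, minus strand, NRF1 core: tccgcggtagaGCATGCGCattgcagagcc
Sdhb (complex II), chr4:140961206-140961235, plus strand, NRF1 core: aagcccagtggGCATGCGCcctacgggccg
Cox6a1 (complex IV), chr5:115349100-115349129, minus strand, NRF1 core: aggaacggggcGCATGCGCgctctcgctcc
Atp5l (complex V), chr9:44920963-44920992, minus strand, NRF1 core: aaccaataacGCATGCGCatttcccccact
Uqcr11 (complex III), chr10:80406869-80406898, minus strand, ETS motif: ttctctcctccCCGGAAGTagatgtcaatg
Atp5h (complex V), chr11:115419940-115419969, minus strand, ETS motif read on the other strand: ccaaggagagaACTTCCGGcaactctcttc
Atp5j (complex V), chr16:84835045-84835074, minus strand, YY1 motif: aagtgtaggaAAGATGGCGgagtcttagct
Of these genes Ndufa6, Sdhb, Cox6a1, Atp5l, Uqcr11 and Atp5h were lower in FLAG IP by the test given below, and Atp5j was not called. The windows are examples, and 54.4% of all tested members were lower. Atp5g2, not called, also holds the NRF1 core and is not printed. The NRF1 core was in 19.4% of members called lower with a promoter and 6.9% of those not called. For the ETS motif these shares were 5.56% and 10.3%, and for the YY1 motif 11.1% and 10.3%. A match of letters is a description of the window, and its relation to the levels was not tested.

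Transcripts of the respiratory chain were lower in FLAG IP than in Input across all 5 complexes. A level here is the log2 signal of a probe relative to the 75th percentile of its own array, and a change is FLAG IP minus Input on that scale, with its limma standard error (SE, 2 arrays per group). Of the 79 tested members, 43 (54.4%) were lower in FLAG IP at an adjusted p under 0.05 and 0 were higher, against 21.3% of all 21590 tested features lower and 15.8% higher. At an unadjusted p under 0.05, limma found 60 members lower and 0 higher. The share of all features at an unadjusted p was not counted, here or in the fits below, so such counts have no background beside them. The median change of the members was -0.69, a level 1.61-fold lower in FLAG IP (62.05% of Input), and that of all features was -0.15. Both FLAG IP arrays lay below both Input arrays for 71 members (89.9%, against 44.7% of all features) and the groups overlapped for 7. By 2-fold or more, 15 members were lower, or 19%, against 8.65% of all features. These counts rest on both Input arrays. Without Input replicate 1 limma called 0 members lower (29 at an unadjusted p under 0.05) and 3.18% of all features. Without Input replicate 2 it called only Ndufv3 (42 members at an unadjusted p under 0.05) and 2.48% of all features, and the lone array of a group is then assumed to vary like the others. The median change of the members was -0.61 without Input replicate 1 and -0.77 without Input replicate 2.

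**Figure D1:**
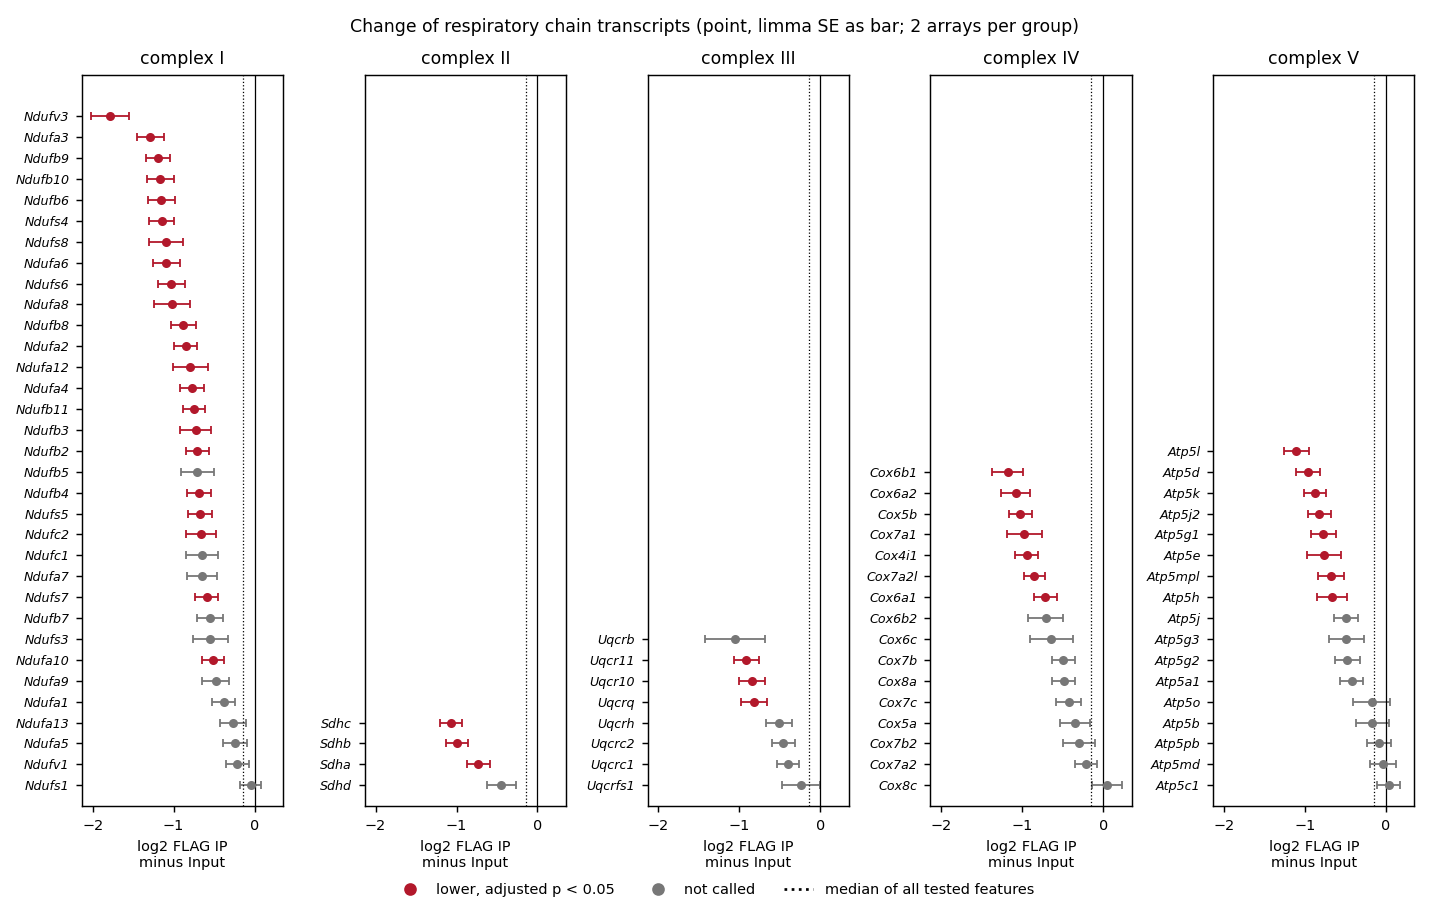
Change of the members described in the text on the horizontal axis (log2 FLAG IP minus Input, bars are limma SE, 2 arrays per group), with 1 panel per complex and genes down the page in order of change. Red points are the 43 members lower at an adjusted p under 0.05, grey points were not called, and the dotted line is the median of all tested features at -0.15.

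The members are bright on these arrays, and the count was set against bright features only. Of the members with a mean level above 0, 54.7% were lower, against 22% of the 8633 features with such a level. All 79 tested members were well above background on all 4 arrays, and the 2 that were not tested, Cox4i2 and Cox8b, were not well above background on any array. The median change of each complex lay below that of all features (-0.15), although all features held a larger share of changes in the far lower tail than the complexes did. The median change was -0.71 in complex I, -0.86 in complex II, -0.66 in complex III, -0.68 in complex IV and -0.49 in complex V, and differences between complexes were not tested.

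**Figure D2:**
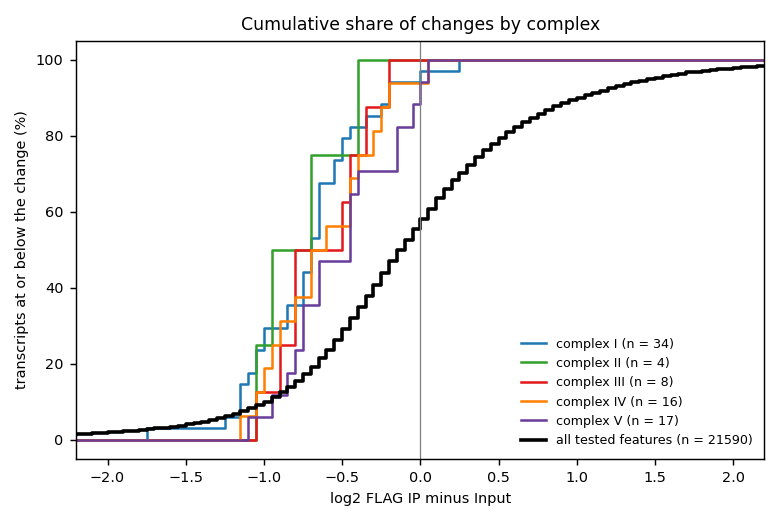
Cumulative share of transcripts (vertical axis, percent) with a change at or below the value on the horizontal axis (log2 FLAG IP minus Input), for the members of each complex and for all 21590 tested features (black). The curves of the complexes cross the black curve in the lower tail, where the strongest decreases lie, and stand above it from -0.85 to 0, with 76 of the 79 members below 0, against 58.1% of all features.

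Complex I had 22 of 34 members lower in FLAG IP (64.7%, against 21.3% of all features), 0 higher and 12 not called. Its accessory subunits, which surround the catalytic core and are needed for its assembly and stability, had 19 of 27 lower (70.4%) with a median change of -0.73. All 27 had both FLAG IP arrays below both Input arrays, against 44.7% of all features. The catalytic core of complex I, the subunits that hold the flavin and the iron-sulphur clusters, had 2 of 6 measured nuclear members lower (33.3%) with a median change of -0.38. The difference between core and accessory subunits was not tested. Without Input replicate 1 the number called in complex I was 0, and without Input replicate 2 it was 1.

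Of the core, Ndufs8, a carrier of iron-sulphur clusters in the arm that reaches into the matrix, had levels of -0.24 and 0.24 in FLAG IP, against 1.18 and 1.02 in Input. Its change was -1.10 ± 0.21 (SE, adjusted p = 0.0199). Ndufs7, which holds the last cluster before coenzyme Q, had 3.03 and 3.06 in FLAG IP, against 3.71 and 3.57 in Input. Its change was -0.59 ± 0.14 (SE, adjusted p = 0.0323), and both genes had FLAG IP arrays clearly apart from the Input arrays. The following ones were not called. Ndufs3, a matrix-arm subunit, had 1.96 and 2.44 in FLAG IP, against 2.86 and 2.63 in Input, and Ndufv1, which binds NADH and the flavin, had 4.44 and 4.42 in FLAG IP, against 4.70 and 4.59 in Input. Ndufs1, the largest subunit and a carrier of iron-sulphur clusters, had 3.65 and 3.64 in FLAG IP, against 3.66 and 3.73 in Input, a change of -0.05 ± 0.13.

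Ndufv3, a small subunit at the NADH-oxidising tip, had the largest change of all members with the brightest probe of each gene. Its levels were -0.20 and 0.25 in FLAG IP, against 2.0 and 1.62 in Input, 3.46-fold lower (change -1.79 ± 0.23 SE, adjusted p = 0.0091). Its 2 other probes changed by -0.94 and -0.84, also below the threshold of the test, so the direction was shared and the size was not. With its probes averaged the change was -1.19, smaller than that of Ndufa3, which follows. Without Input replicate 1 its change was -1.60 with an adjusted p of 0.0624, and without Input replicate 2 it was -1.98 with an adjusted p of 0.0452.

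Further accessory subunits of both arms were lower by 2-fold or more. Ndufa3, a single-span membrane protein, had 1.04 and 1.22 in FLAG IP, against 2.54 and 2.30 in Input (2.44-fold lower, adjusted p = 0.00888). Ndufb9, an LYR-motif protein that binds the mitochondrial acyl carrier protein, had 4.06 and 4.26 in FLAG IP, against 5.38 and 5.33 in Input. It averaged 4.16 ± 0.14 in FLAG IP and 5.35 ± 0.03 in Input (SD, n = 2 each), a change of -1.19 ± 0.15 (SE, adjusted p = 0.00837). Both genes showed a gap between the groups that was several times the spread within them. Ndufb10, a membrane-arm subunit, had 3.51 and 3.73 in FLAG IP, against 4.89 and 4.67 in Input, a change of -1.16. Ndufb6, another membrane-arm subunit, had 2.16 and 2.42 in FLAG IP, against 3.51 and 3.37 in Input, a change of -1.15. Ndufs4, a matrix-arm subunit whose loss is used as a mouse model of Leigh syndrome, had 2.37 and 2.56 in FLAG IP, against 3.70 and 3.54 in Input, a change of -1.15. Ndufa6, the second LYR-motif subunit, had 1.46 and 1.62 in FLAG IP, against 2.76 and 2.51 in Input, a change of -1.09. Each of these 4 was lower in FLAG IP with adjusted p between 0.00976 (Ndufs4) and 0.0122 (Ndufa6).

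**Figure D3:**
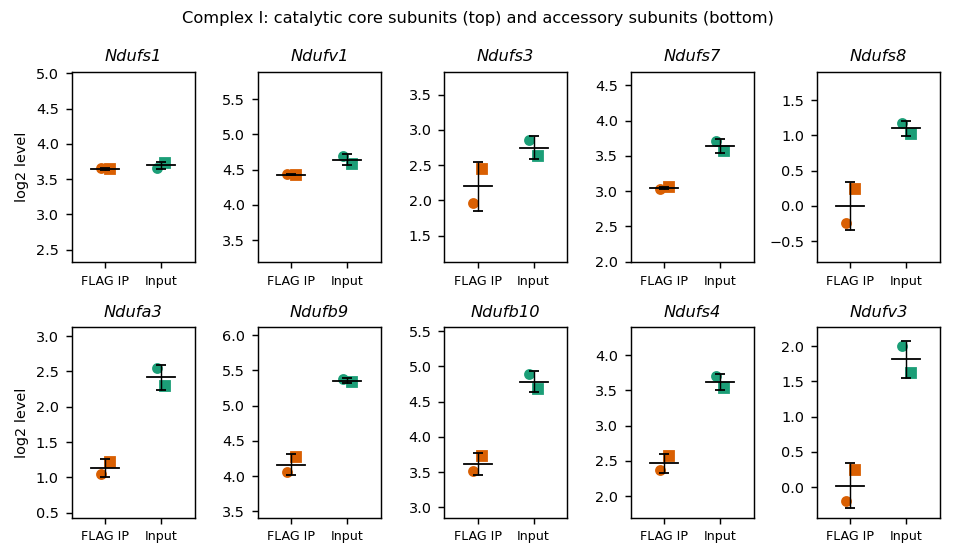
Level on each array (log2 relative to the array's 75th percentile) of core subunits of complex I in the top row and of accessory subunits in the bottom row, FLAG IP left of Input. Circles are replicate 1, squares replicate 2, and black bars are mean ± SD of 2 arrays. Every panel spans the same number of log2 units, so the gaps can be compared: FLAG IP and Input lie close for Ndufs1 and apart for Ndufv3.

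Further accessory subunits fill the range between these and the threshold. Ndufs6 (-1.03), which binds zinc near the base of the NADH-oxidising module, and Ndufa8 (-1.02), which faces the intermembrane space, were lower by 2-fold or more. Ndufb8 (-0.88), Ndufa2 (-0.85), Ndufa12 (-0.79), Ndufb11 (-0.75), Ndufb3 (-0.73), Ndufb2 (-0.71), Ndufb4 (-0.69), Ndufs5 (-0.68), Ndufc2 (-0.66) and Ndufa10 (-0.52) were lower by less. Of the 8 accessory subunits that were not called, Ndufb5 (-0.71), Ndufc1 (-0.65), Ndufa7 (-0.65) and Ndufb7 (-0.55) lay just outside, with adjusted p between 0.0526 and 0.0571, and Ndufa9 (-0.48), Ndufa1 (-0.38), Ndufa13 (-0.27) and Ndufa5 (-0.24) farther from it. Ndufa13, also known as GRIM-19, had 5.71 and 5.77 in FLAG IP, against 6.15 and 5.87 in Input. Choice of probe mattered for 3 of these: second probes of Ndufa1 (-0.92), Ndufa7 (-1.19) and Ndufc1 (-0.94) were each called lower, whereas the brightest probe, which was used, was not. In all 14 members with more than 1 probe, the probes changed in the same direction.

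Ndufa4 was first described in complex I and is now placed in complex IV. By its symbol it is held in the complex I counts and median above, and not in those of complex IV. It had 3.27 and 3.44 in FLAG IP, against 4.17 and 4.08 in Input, and was 1.71-fold lower (change -0.77 ± 0.15 SE, adjusted p = 0.0194).

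Complex II, the succinate dehydrogenase that also works in the citrate cycle, had 3 of its 4 subunits lower (75%, against 21.3% of all features). All 4 had both FLAG IP arrays below both Input arrays, against 44.7% of all features. Sdhc, a membrane anchor that holds the haem together with Sdhd, had 1.74 and 1.63 in FLAG IP, against 2.77 and 2.73 in Input (2.09-fold lower, change -1.06 ± 0.14 SE, adjusted p = 0.00899). Sdhb, the iron-sulphur subunit, had 2.15 and 2.26 in FLAG IP, against 3.25 and 3.16 in Input (1.99-fold lower, adjusted p = 0.0106). In both, replicates lay within a narrow band and the groups were well apart. Sdha, the flavoprotein that oxidises succinate, had 1.51 and 1.63 in FLAG IP, against 2.36 and 2.25 in Input (change -0.73, adjusted p = 0.021). Its other probe changed by -0.20 and was not called, and with the probes averaged the change was -0.46 with an adjusted p of 0.0551. Sdhd, the other anchor, had 2.70 and 3.06 in FLAG IP, against 3.29 and 3.37 in Input, and its change of -0.45 was not called (adjusted p = 0.112). With either Input array left out, 0 of the 4 were called.

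Complex III had 3 of 8 members lower (37.5%, against 21.3% of all features), all of them small subunits around the catalytic core. Uqcr11 had 3.38 and 3.46 in FLAG IP, against 4.44 and 4.22 in Input (change -0.91 ± 0.15 SE, adjusted p = 0.0149). Uqcr10 had 3.57 and 3.52 in FLAG IP, against 4.52 and 4.26 in Input (change -0.85, adjusted p = 0.0191). Uqcrq, which lies close to cytochrome b, had 4.35 and 4.41 in FLAG IP, against 5.33 and 5.07 in Input (change -0.82, adjusted p = 0.0205). FLAG IP replicates of these 3 were nearly equal and the Input replicates varied more. Uqcrb, which borders the coenzyme Q site, had the largest change of the complex, -1.06 ± 0.37 (SE), but its arrays were spread widely, at 0.77 and 1.67 in FLAG IP, against 2.55 and 2.0 in Input, and it was not called (adjusted p = 0.0817). Uqcrh, the acidic hinge protein, had 5.38 and 5.20 in FLAG IP, against 5.90 and 5.69 in Input (adjusted p = 0.064), and its second probe was called lower at -0.85. With either Input array left out, 0 of the 8 were called.

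The 2 core proteins and the iron-sulphur protein of complex III were not called. Uqcrc1 had 4.17 and 4.24 in FLAG IP, against 4.56 and 4.64 in Input, and Uqcrc2 had 3.71 and 3.55 in FLAG IP, against 4.06 and 4.12 in Input, with adjusted p of 0.0801 and 0.0632. Uqcrfs1, the Rieske protein, had 2.44 and 3.02 in FLAG IP, against 3.06 and 2.88 in Input, and was the only member of the complex whose groups overlapped. The median change was -0.40 over these 3 and -0.85 over the 5 small subunits, a difference that was not tested. Cyc1, the cytochrome of this complex, which the membership rule does not reach, was lower, with 3.74 and 3.45 in FLAG IP, against 4.40 and 4.34 in Input (change -0.77, adjusted p = 0.025).

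Complex IV had 7 of 16 tested members lower (43.8%, against 21.3% of all features), 9 not called and 0 higher. Of the 10 ubiquitous isoforms tested, 4 were lower (40%), and all 10 had both FLAG IP arrays below both Input arrays, against 44.7% of all features. Cox6b1, which faces the cytochrome c side, had -1.12 and -0.71 in FLAG IP, against 0.35 and 0.18 in Input (2.27-fold lower, change -1.18 ± 0.19 SE, adjusted p = 0.0144). Cox5b, a zinc-binding subunit on the matrix side, had 4.20 and 4.06 in FLAG IP, against 5.21 and 5.10 in Input (2.03-fold lower, adjusted p = 0.0107). Cox4i1, the subunit through which ATP is known to inhibit the enzyme, had 5.02 and 5.11 in FLAG IP, against 6.08 and 5.93 in Input (1.92-fold lower, adjusted p = 0.0124). Cox6a1 had 5.76 and 5.89 in FLAG IP, against 6.60 and 6.48 in Input (1.64-fold lower, adjusted p = 0.0226). In each of these 4 the groups were separate by more than the range of either. The ubiquitous subunits not called were Cox6c (-0.64), Cox7b (-0.49), Cox8a (-0.49), Cox7c (-0.43), Cox5a (-0.35) and Cox7a2 (-0.21), with Cox8a and Cox7b just outside at adjusted p of 0.0517 and 0.0528. With either Input array left out, 0 of the 16 were called.

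Alternative isoforms replace the ubiquitous ones in particular tissues, and the probes separate them by accession. Cox6a2, the heart and muscle form of subunit 6a, had -2.82 and -2.45 in FLAG IP, against -1.50 and -1.60 in Input (2.12-fold lower, adjusted p = 0.015). Cox7a1, the heart and muscle form of subunit 7a, had 0.82 and 1.12 in FLAG IP, against 2.16 and 1.73 in Input (1.96-fold lower, adjusted p = 0.0276). Both were lower on each FLAG IP array than on either Input array. Of their ubiquitous partners, Cox6a1 changed by -0.71, as above, and Cox7a2 was not called, with 3.62 and 3.56 in FLAG IP, against 3.78 and 3.83 in Input (-0.21). Differences between isoforms were not tested. The 3 testis isoforms were not called. Cox6b2 had 0.29 and -0.21 in FLAG IP, against 0.69 and 0.81 in Input (change -0.71, adjusted p = 0.0581), Cox7b2 had -0.93 and -0.49 in FLAG IP, against -0.40 and -0.43 in Input, and Cox8c had -0.49 and -0.08 in FLAG IP, against -0.34 and -0.32 in Input. Cox8c was the complex IV member whose groups overlapped, with a change of 0.05 ± 0.19. Cox4i2, the oxygen-responsive form found mainly in lung, and Cox8b, a heart and muscle form, were not well above background on any array, and no fold is given for them. Cox7a2l, a relative of subunit 7a that joins complexes III and IV into supercomplexes, had 2.83 and 2.80 in FLAG IP, against 3.67 and 3.66 in Input (1.80-fold lower, adjusted p = 0.0129), with replicates nearly equal in both groups.

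**Figure D4:**
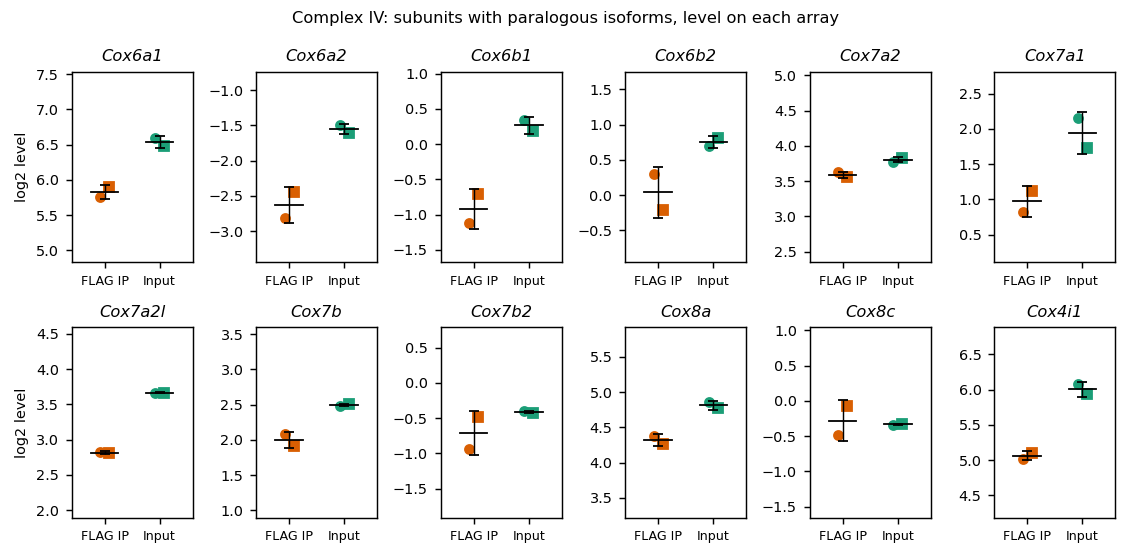
Level on each array (log2 relative to the array's 75th percentile) of complex IV subunits that come as paralogous isoforms, FLAG IP left of Input, with Cox4i1 shown without its partner, which was not above background. Circles are replicate 1, squares replicate 2, black bars are mean ± SD of 2 arrays, and all panels span the same number of log2 units. Groups are separate for Cox6a2 and Cox7a1 and overlap for Cox8c.

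Complex V had 8 of 17 members lower (47.1%, against 21.3% of all features) and 9 not called. Groups overlapped for 5 of the 9, and for 5499 of all 21590 tested features, a share near that of complex V. In the F1 head, where ATP is made, the 3 subunits of the catalytic ring and its shaft were not called. Atp5a1, the alpha subunit, had 5.20 and 5.35 in FLAG IP, against 5.67 and 5.73 in Input (adjusted p = 0.0742). Atp5b, the catalytic beta subunit, had 6.0 and 6.35 in FLAG IP, against 6.51 and 6.17 in Input, and Atp5c1, the gamma shaft, had 6.24 and 6.36 in FLAG IP, against 6.31 and 6.22 in Input, so the groups of both overlapped. The 2 small subunits at the foot of the shaft were lower. Atp5d, the delta subunit, had 2.18 and 2.16 in FLAG IP, against 3.24 and 3.02 in Input (1.95-fold lower, adjusted p = 0.013), and Atp5e, the epsilon subunit, had 4.26 and 4.66 in FLAG IP, against 5.37 and 5.07 in Input (1.69-fold lower, adjusted p = 0.0467). Atpif1, the inhibitor of the F1 head, is outside the membership rule and was lower too, with 4.89 and 5.09 in FLAG IP, against 5.80 and 5.72 in Input (adjusted p = 0.0206). With either Input array left out, 0 of the 17 members were called, and without FLAG IP replicate 1 the count was 5.

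In the membrane part of complex V, Atp5l, subunit g, had the largest change of the complex, with 2.42 and 2.33 in FLAG IP, against 3.58 and 3.38 in Input (2.15-fold lower, change -1.11 ± 0.15 SE, adjusted p = 0.01). Subunits g, e and f lie where the synthase forms dimers. Atp5k, subunit e, had 1.42 and 1.49 in FLAG IP, against 2.35 and 2.31 in Input (change -0.87, adjusted p = 0.0126), and Atp5j2, subunit f, had 3.58 and 3.52 in FLAG IP, against 4.45 and 4.30 in Input (change -0.82, adjusted p = 0.016). With Atp5mpl (-0.68), these 3 made 4 of 5 small membrane subunits lower, and the fifth, Atp5md (-0.04), had overlapping groups at 3.60 and 3.72 in FLAG IP, against 3.81 and 3.59 in Input. Of the genes for subunit c, whose mature protein is the same from each, Atp5g1 was lower, with 2.71 and 2.90 in FLAG IP, against 3.67 and 3.49 in Input (adjusted p = 0.0229). Atp5g2 (-0.48) and Atp5g3 (-0.49) were not called, although a second probe of Atp5g2 was called lower at -0.70. Of the peripheral stalk, Atp5h, subunit d, was lower (-0.66, adjusted p = 0.0474), with a second probe just outside the threshold. Atp5j (-0.49), Atp5o (-0.18) and Atp5pb (-0.09) were not called, and the groups of the last 2 overlapped.

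Many subunits of these complexes have processed pseudogenes that resemble the coding transcript, and a probe may not tell such copies apart, so levels of single genes carry that uncertainty. An array scaled to its own 75th percentile reports a share of the RNA labelled and not an amount. Scaling to the spike-in spots takes a single constant off each array, so it moved the change of every feature alike, by -0.93. The members' median minus that of all features therefore stayed at -0.54 by construction, which is no test of the members. Under quantile normalization that difference was -0.39, with 34 members called lower and 1, Atp5c1, called higher (change 0.51, adjusted p = 0.041).

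**Figure D5:**
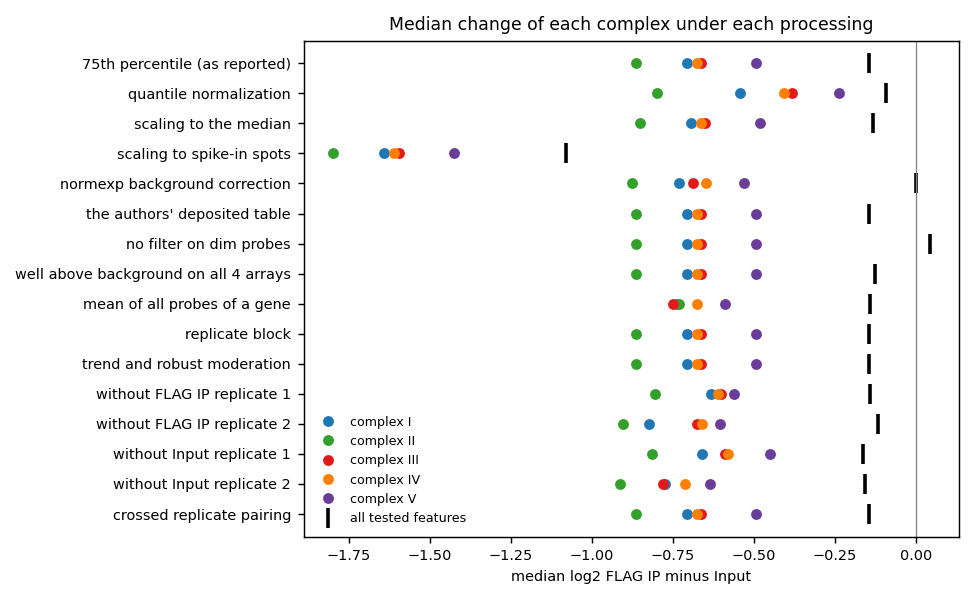
Median change of each complex (coloured points) and of all tested features (black bars) on the horizontal axis, log2 FLAG IP minus Input, under each processing listed down the page, beginning with the one reported. The medians of all 5 complexes lie left of the median of all features in every row, and spike-in scaling moves the whole set left. Many rows could not differ in this. Median and spike-in scaling, the deposited table, the replicate block, trend and robust moderation and the crossed pairing keep the members' difference from all features at -0.54 by construction. The filter rows leave the change of each tested member as it was.

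Other genes of the same pathway were counted in lists made for the purpose. Of 38 tested assembly factors, 9 were lower and 3 higher, with a median change of -0.26. The share lower was 23.7%, against 21.3% of all features, so the list lay near the background. Uqcc2, an assembly factor of complex III, had 2.61 and 2.79 in FLAG IP, against 4.18 and 4.0 in Input (change -1.39, adjusted p = 0.00712). Cox20, a chaperone of a mitochondrially encoded subunit of complex IV, had a change of -1.11, and Ndufaf4, an assembly factor of complex I, was higher, with 3.34 and 3.37 in FLAG IP, against 2.10 and 2.12 in Input (change 1.25, adjusted p = 0.00662). Of 20 genes of electron carriers and coenzyme Q, 4 were lower (20%, near the share of all features) and 2 higher (median change -0.26). The 2 cytochrome c genes moved in opposite directions. Cyct, the testis form, had 2.34 and 2.12 in FLAG IP, against 0.50 and 0.84 in Input (change 1.56 ± 0.19 SE, adjusted p = 0.00781), whereas Cycs, the somatic form, had 4.23 and 4.71 in FLAG IP, against 5.45 and 5.16 in Input (change -0.83, adjusted p = 0.0437). Coq10b, a coenzyme Q binding protein, was higher (1.51), and Ndufab1, the mitochondrial acyl carrier protein that is also a subunit of complex I, was lower (-1.07).

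Of 18 genes of the citrate cycle, 3 (16.7%, under the share of all features) were lower (Idh3g at -0.67, Idh3b at -0.65 and Suclg1 at -0.64), 0 were higher, and the median change was -0.17. Of 24 genes that keep, copy and express mitochondrial DNA, 2 were lower (8.33%) and 3 higher, with the same median of -0.17, also with a share lower under that of all features. Tfam, which packages mitochondrial DNA and starts its transcription, was higher, with 4.22 and 4.22 in FLAG IP, against 2.99 and 2.88 in Input (change 1.29 ± 0.14 SE, adjusted p = 0.00662). Gabpa, the DNA-binding part of the ETS factor NRF2, was higher as well (1.03, adjusted p = 0.0352), and Slirp, which stabilises mitochondrial mRNA, was lower (-1.09). The medians of the citrate cycle and mitochondrial DNA lists differed from that of all features by -0.02 each, and no test was made between lists.

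Ribosomal proteins, also small and abundantly transcribed, were the nearest comparison. Of 83 cytosolic ribosomal protein genes, 58 (69.9%) were lower with a median change of -0.73, and of 76 mitochondrial ribosomal protein genes, 38 (50%) were lower and 1 was higher with a median change of -0.54. The members, at 54.4% lower and a median of -0.69, lay between the 2 sets, and differences between them were not tested.

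Testis at this age holds germ cells among several somatic types. Levels in FLAG IP and in Input, the starting RNA, are shares of RNA from such testis and do not count cells. Of the tested markers, somatic ones were lower in FLAG IP alongside the members: 6 of 10 of Sertoli cells (median change -0.81), 4 of 7 of Leydig cells (-1.0), 4 of 6 of peritubular myoid cells (-0.72), 4 of 4 of macrophages (-1.13) and 2 of 3 of red blood cells (-0.98). Of 5 endothelial markers 0 were called, of 5 of skeletal muscle 1 was lower, and of 4 of brown fat 2 were lower and 1 higher. Over all features 21.3% were lower and 15.8% higher, so the skeletal muscle list (20% lower) lay near the background. Summed linear levels of the Sertoli markers were 99.84 and 96.12 in FLAG IP, against 144 and 140.5 in Input, and those of the Leydig markers were 13.72 and 17.61 in FLAG IP, against 38.44 and 29.03 in Input. The myoid markers summed to 74.57 and 76.48 in FLAG IP, against 125.5 and 113.2 in Input, and the macrophage markers to 1.1 and 1.29 in FLAG IP, against 2.84 and 2.78 in Input. The endothelial markers summed to 1.5 and 1.1 in FLAG IP, against 1.34 and 1.94 in Input, and overlapped. The other somatic sums named here did not. Among single features, both FLAG IP arrays lay below both Input arrays for 44.7%. Clu and Acta2, the brightest of the Sertoli and myoid markers, weigh most in those sums and were not called. The red blood cell markers summed to 23.01 and 28.79 in FLAG IP, against 67.91 and 44.17 in Input. All 9 markers of undifferentiated spermatogonia were higher (median change 2.35), with sums of 42.16 and 32.29 in FLAG IP, against 7.27 and 7.45 in Input. Of these 9, 7 were well above background on all 4 arrays. Ret and Eomes entered the test through FLAG IP, where they are high, so the filter favoured their direction. Likewise Tsx of the Sertoli list, Lhcgr of the Leydig list and Ucp1 of the brown fat list entered through Input. Of 9 general germ cell markers 2 were higher, Nanos2 and Taf7l (22.2%, near the 15.8% of all features). The germ cell list summed to 74.03 and 99.71 in FLAG IP, against 65.0 and 64.11 in Input. Nanos2 had -1.94 and -2.44 in FLAG IP, against -3.87 and -3.66 in Input (change 1.58, adjusted p = 0.0105). All samples carry the tagged transgene, and its transcripts and those of the endogenous Nanos2 gene were not separated. The part of these shifts in the changes of the respiratory chain was not tested.

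The arrays were alike in quality. Between 66.3% and 68.4% of 41159 probes with complete values were well above background, and 0 spots were saturated. The signal at the scaling percentile was 1019 and 1267 in FLAG IP, against 1474 and 1676 in Input. The median SE of a member's change was 0.16, and the number of arrays limits that precision.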

How the data were processed

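RNA of FLAG IP (2 arrays) and Input (2 arrays) was measured on single-colour Agilent arrays. Per the file headers, the deposited intensity files hold background-subtracted processed signals and spot flags, and the submitters' processing notes name Agilent Feature Extraction 9.5. The authors' deposited table holds log2 values, each array shifted by its own constant, and 99.6% of probes matched the scanner's processed signal to within 0.01. Its column medians were 6.25 and 6.15 for FLAG IP and 6.18 and 6.25 for Input. The labels' protocols do not describe the immunoprecipitation.

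Outlier and control spots were left out, spots of a probe averaged, and log2 signals set relative to the array's 75th percentile. Accessions were matched to RefSeq transcripts of GRCm38.p6, which named 22951 of 41174 probes, and the brightest probe of a gene was used. The 21590 of 33377 features well above background (a share of at least 0.5 of the spots) on the 2 arrays of either group entered a fit by lmFit and eBayes (limma 3.58.1, R 4.3.3, two-sided). P-values were adjusted by Benjamini-Hochberg over this whole set, with 0.05 as the threshold. P-values come from this fit, or from the same model under another setting where the sentence names one. The model was also tested on simulated data. Named genes were the called members of largest change in each complex, members higher or not above background, genes picked for their role, and up to 3 called genes of each related list, and the remaining members are given by their change. Members and lists were chosen with earlier results of these data known, and lists were counted and not tested. Some genes that the naming rule takes are left out of the text, and stay in the counts.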

Additional observations from a re-analysis of the deposited data

How the results depend on the processing

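The 43 members called lower were all still lower and called under spike-in scaling, normexp, the authors' deposited table, a filter requiring all 4 arrays above background, moderation with trend and robust fitting, and the crossed pairing, and 34, 38, 32, 41 and 22 of them under quantile normalization, scaling to the median, no filter, averaged probes and the replicate block. The deposited table holds the same signal at the same scaling, so it is not a separate check. Spike-in scaling called 64.2% of all features lower and the crossed pairing 30.1%, against 21.3% in the fit reported.
Quantile normalization gave median changes of -0.54, -0.80, -0.38, -0.41 and -0.24 for complexes I to V, 1 member higher, and changes above 0 for Atp5a1 (0.021), Atp5b (0.32), Atp5md (0.15), Atp5o (0.13), Atp5pb (0.26), Cox5a (0.078), Ndufa13 (0.20), Ndufs1 (0.12) and Ndufv1 (0.060).
Spike-in scaling, which moved all features by -0.93, gave 672 features higher and 13860 lower, 78 members lower, medians of -1.64, -1.80, -1.60, -1.61 and -1.43, 8, 16 and 17 called in complexes III to V, and changes below 0 for Atp5c1 (-0.90) and Cox8c (-0.88).
Complex III had 6 called with normexp, 6 with trend and robust moderation (complex IV 11) and 5 with the crossed pairing (complex IV 12). With no filter on dim probes, 3020 features and 5 members of complex V were called lower, and with averaged probes the median of complex II was -0.73.
The labels do not say whether FLAG IP and Input arrays of the same number share a starting sample. Over all features FLAG IP 1 minus 2 correlated at -0.38 with Input 1 minus 2, which does not settle it. The crossed pairing was added after this correlation was seen, so its calls are no separate check. It called 58 members lower (73.4%), and also 30.1% of all features lower and 20% higher, against 21.3% and 15.8% in the fit reported. The replicate block on the numbers as labelled gave 2269 features higher and 2288 lower (10.6%). It called 22 members lower (27.8%), and 11, 1 and 3 in complexes I, III and V.
Leaving out each array in turn gave 693 to 3752 features higher, 545 to 4146 lower, 0 to 44 members lower and 0 to 0 higher. By complex it gave 0 to 22 called with medians of -0.82 to -0.63 in I, 0 to 4 with -0.91 to -0.80 in II, 0 to 4 with -0.78 to -0.59 in III, 0 to 8 with -0.71 to -0.58 in IV, and 0 to 6 with -0.64 to -0.45 in V. Changes crossed 0 for Atp5b (-0.34 to 0.0089), Atp5md (-0.15 to 0.075) and Atp5o (-0.38 to 0.033), which were above 0 without FLAG IP replicate 1 and without Input replicate 1, for Uqcrfs1 (-0.53 to 0.045), above 0 without FLAG IP replicate 1, for Atp5c1 (-0.031 to 0.094), below 0 without FLAG IP replicate 2 and without Input replicate 2, and for Cox8c (-0.16 to 0.26), below 0 without FLAG IP replicate 2. The cause of these moves was not tested, beyond the fewer arrays of each such fit. Slide as a block was not run, and normexp used the median signal.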
